A study of Homo sapiens with 6 samples.

Results

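The genes described here are 58 listed genes of human chromosome 9, running in chromosomal order from SHB on the short arm near the centromere to HSDL2 on the long arm, which an earlier look at these arrays had picked out as lower together in the melanoma line WM266-4. They were found by symbol in the gene-named table: all 58 were there, out of 17766 genes in all, and 55 of them were among the 12436 genes bright enough to test. PIP5K1B, PRUNE2 and GNA14 fell below the brightness limit and are given by their levels alone. The genes were chosen by the line difference itself, WM266-4 against WM115 on these same arrays, so their differences are given as a description, and no count of them is a test.

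RNA was compared between WM266-4, a line established from a skin metastasis of melanoma, and WM115, a line established from a primary skin melanoma, with 3 biological repeats of each line and therefore 6 arrays. No treatment is named for either line, and both were grown in the same DMEM medium with foetal bovine serum, and each stands for 1 tumour sample carried in culture. The arrays of repeat 1 were Human Gene 1.0 ST with RNA from a miRNeasy kit, and those of repeats 2 and 3 were Human Gene 2.1 ST with RNA from a GeneAll kit, so kit, array version and repeat changed together within each line. The series title concerns SNX18, CDC42 and RHOA in melanoma migration. All levels are deposited log2 signals, on which a step of 1 is a doubling, and all differences are WM266-4 minus WM115.

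As background, genes next to each other on a chromosome usually serve unrelated functions but share the number of DNA copies of their segment, and melanomas often gain or lose whole chromosome segments. These arrays measured RNA and not DNA copies. The listed genes are of that mixed kind: they encode a Hedgehog receptor (PTCH1), Gq proteins (GNAQ, GNA14), Groucho corepressors (TLE1, TLE4), chromosome-structure proteins (SMC2, SMC5), a thioredoxin (TXN), enzymes of lipid and sugar metabolism, and proteins of RNA processing and vesicle transport.

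The array medians lay between 6.12 and 6.18, and no replicate repeated another's values. The deposited values no longer carried an array-version effect in single genes: the mean of each gene over the 1.0 arrays lay a median of 0.0041 from its mean over the 2.1 arrays, and a level of the first repeat cannot be set against a level of the later repeats. The melanocytic marker genes had a summed level that was 64.6 to 70.5 in WM266-4 and 38.6 to 43.7 in WM115, with 5 of 8 (MITF, PMEL, MLANA, TYR and DCT) called higher in WM266-4. All 8 were past the brightness limit on the mean of the 6 arrays, but in WM115 PMEL, MLANA, TYR and DCT averaged 3.62, 3.60, 3.17 and 2.79, below it, while SOX10 and S100B averaged 8.09 and 9.72 in WM266-4 and 7.90 and 9.58 in WM115. Of the markers of other cell types, 7 of 9 fibroblast genes, 1 of 7 keratinocyte genes, 1 of 7 leukocyte genes and 1 of 4 endothelial genes were past the limit. The summed levels of these lists were 43.0 to 44.4 in WM266-4 and 42.2 to 44.3 in WM115 for fibroblast genes, 22.3 to 23.4 in WM266-4 and 24.1 to 24.96 in WM115 for keratinocyte genes, 26.4 to 28.4 in WM266-4 and 27.3 to 29.3 in WM115 for leukocyte genes, and 14.6 to 15.1 in WM266-4 and 16.1 to 16.8 in WM115 for endothelial genes. DSP, CD68 and KDR, the 1 gene past the limit in each of the last 3 lists, were called lower in WM266-4. In the fibroblast list COL1A2 was called higher (4.48) and COL3A1 (-2.01) and PDGFRB (-1.02) lower, which the sum does not show. In WM266-4 DSP, COL3A1 and PDGFRB averaged 3.80, 3.81 and 3.93, below the limit. The part of these genes in the chromosome 9 differences was not tested.

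Over the 55 listed genes tested, the median difference was -0.39, a level 1.31-fold lower in WM266-4, and the middle 50% of the genes lay between -0.68 and -0.13. A gene was called where its adjusted p was under 0.05 in a limma fit over all genes tested. By that rule 26 of the 55 listed genes (47.3%) were lower in WM266-4, where 13.3% of all genes tested were called lower, and 3 (5.45%) were higher, where 13.6% of all genes were called higher. The other 26 were not called, and over all genes 26.9% were called in either direction. A negative difference was found in 47 of the 55, and the median was -0.39, -0.36 and -0.37 in repeats 1, 2 and 3. In 35 of the 55 (63.6%) all 3 repeats gave a lower value in WM266-4, against 28.9% of all genes, and in 5 all 3 gave a higher one, against 30.1% of all genes. In 35 the 3 WM266-4 arrays all lay below the 3 WM115 arrays, against 25.2% of all genes. Such a separation sets first-repeat levels against later ones, from which the version effect had been removed. Here and below, it is therefore no support beyond the direction of the repeats. These counts use the contrast that chose the genes, and nothing is read from their distance to the background. In bulk RNA from a culture, fewer cells making an RNA and less RNA per cell cannot be told apart.

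The name given to the set, long-arm genes shifted down together, held for part of it. SHB and ALDH1B1, the first listed genes in order, lie on the short arm, and neither was called: SHB differed by -0.00 ± 0.19 and ALDH1B1 by 0.29 ± 0.12 (SE). Without them 26 of 53 were called lower and the median was -0.40. DAPK1, ABCA1 and GOLM1 on the long arm went the other way and were called higher. A drop of 1 or more on the log2 scale was reached by 7 genes, so most of the differences were smaller than 2-fold, and 2 genes were higher by 1 or more. Of the 26 lower calls, 11 held under all 11 alternative treatments of the data that gave different fits (ZFAND5, ANXA1, TLE4, SPIN1, SPTLC1, IARS, NOL8, IPPK, BICD2, PTCH1 and TXN), as did the higher calls of DAPK1 and ABCA1. The other 15 lower calls were each lost at least once, most often XPA (7 of the 11) and ALG2, AUH, NCBP1 and SLC35D2 (6 of the 11 each). In APBA1, GCNT1 and CDC14B the WM266-4 mean (3.79, 3.897 and 3.62), and in ABCA1 the WM115 mean (3.89), lay below the brightness limit of 3.97, so these 4 passed it through the other line and the size of their difference rests on a level not shown to be above background. The number of lower calls was 12 without WM266-4 array 2, 14 without array 3, 12 without WM115 array 2 and 17 without array 3. Among the 12 lowest and the 3 higher genes, leaving out array 2 of either line ended the calls of GCNT1, CDC14B, GOLM1 and APBA1. Leaving out WM115 array 3 did so for GOLM1, and array 3 of either line for APBA1. The limma adjusted p was up to 0.059 for GCNT1, 0.061 for CDC14B, 0.081 for GOLM1 and 0.092 for APBA1. HABP4 (-0.71), outside these genes, lost its call without WM266-4 array 3 or WM115 array 2 (limma adjusted p up to 0.061). Over all genes the lower calls came to 716, 846, 933 and 898 in the same 4 fits, against 1654 with every array.

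**Figure D1:**
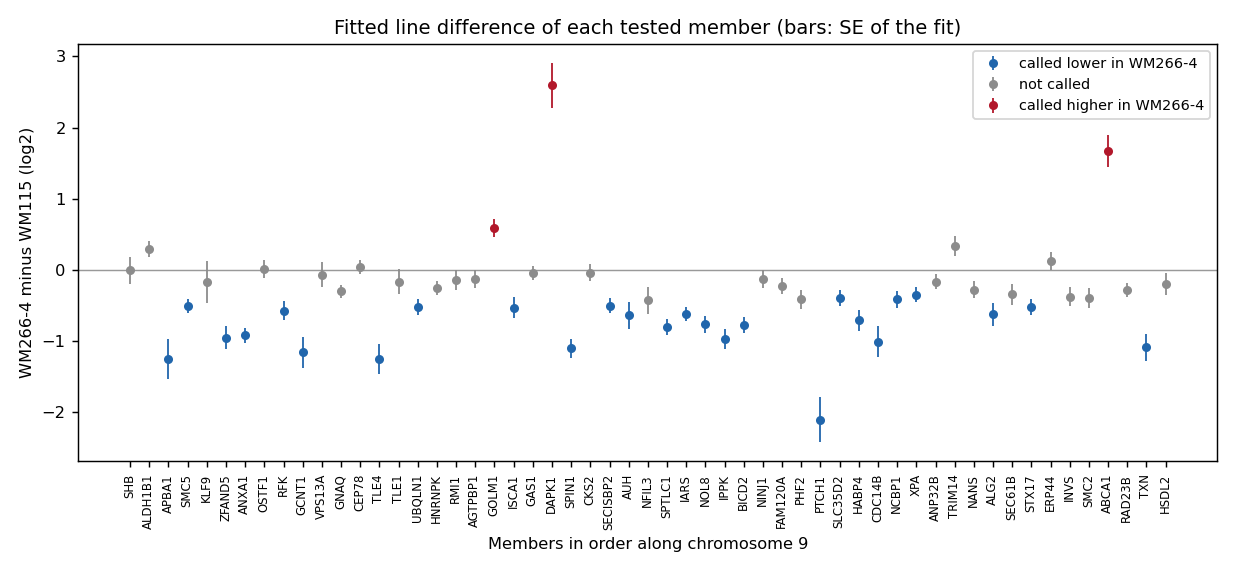
Fitted difference of each tested listed gene, WM266-4 minus WM115 on the log2 scale, in order along chromosome 9; points are the limma estimates and bars the standard errors of the fit. Of the 55 genes 26 are called lower, and DAPK1 (2.59), ABCA1 (1.67) and GOLM1 (0.59) are the 3 called higher.

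Placed in chromosomal order by RefSeq's gene order, the low values extended to genes outside the list. The interval from SHB to HSDL2 held 83 other tested genes, and 37 of them (44.6%) were called lower in WM266-4 and 5 (6.02%) higher, with a median of -0.34 and 65 negative values. Over the whole interval of 138 tested genes 63 were called lower and 8 higher. On the short-arm side of the interval, 120 tested genes of chromosome 9 had a median of 0.08, with 12 called lower and 18 higher, and beyond HSDL2 another 251 had a median of 0.05, with 25 lower and 24 higher. The 11887 genes placed on other chromosomes had a median of 0.01, with 13.0% called lower. Leaving out 1 array gave 21 lower calls among the 83 without WM266-4 array 2, 20 without array 3, 20 without WM115 array 2 and 24 without array 3. The listed genes were taken from this interval with its values known, so their neighbours are not an independent sample either.

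Cut into blocks of 20 consecutive tested genes, chromosome 9 had 9 low blocks in a row, from SHB to MRRF. Their median differences ran from -0.60 up to -0.24, the last in the block from C9orf85 to C9orf64. In the 9 blocks 84 of 180 genes (46.7%) were called lower and 9 higher. Over all genes tested 13.3% were called lower and 13.6% higher. The run was picked out by its low medians and holds the listed genes, chosen on the same contrast. Neither its share nor that of the blocks outside it is therefore a test. The other 16 blocks of the chromosome had medians between -0.14 and 0.24, and 16 of their 320 genes (5%) were called lower. At the short-arm end the block from SHB to ABHD17B had a median of -0.46 with 11 of 20 genes lower, against 0.10 with none lower in the block before it. Block edges came from counting off genes and do not place the change. SHB (-0.00), ALDH1B1 (0.29) and IGFBPL1 (-0.17), with which that block begins, were not called. At the other end the low run went on past HSDL2, the last listed gene, through the blocks from SNX30 to PAPPA (-0.49) and from ASTN2 to MRRF (-0.51), and the next block, from PTGS1 to ARPC5L, had a median of 0.04 with none lower. The block medians of each of the 9 were below 0 in every repeat, the highest being -0.16, -0.25 and -0.21 in repeats 1, 2 and 3. Low blocks also occurred elsewhere. With a limit of -0.25, set after the values were seen, 8 blocks of chromosome 9 and 53 of the 565 other autosomal blocks were at or below it, among them 10 each on chromosomes 5 and 6 and 7 on chromosome 12, and the lowest autosomal block lay at -0.67.

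**Figure D2:**
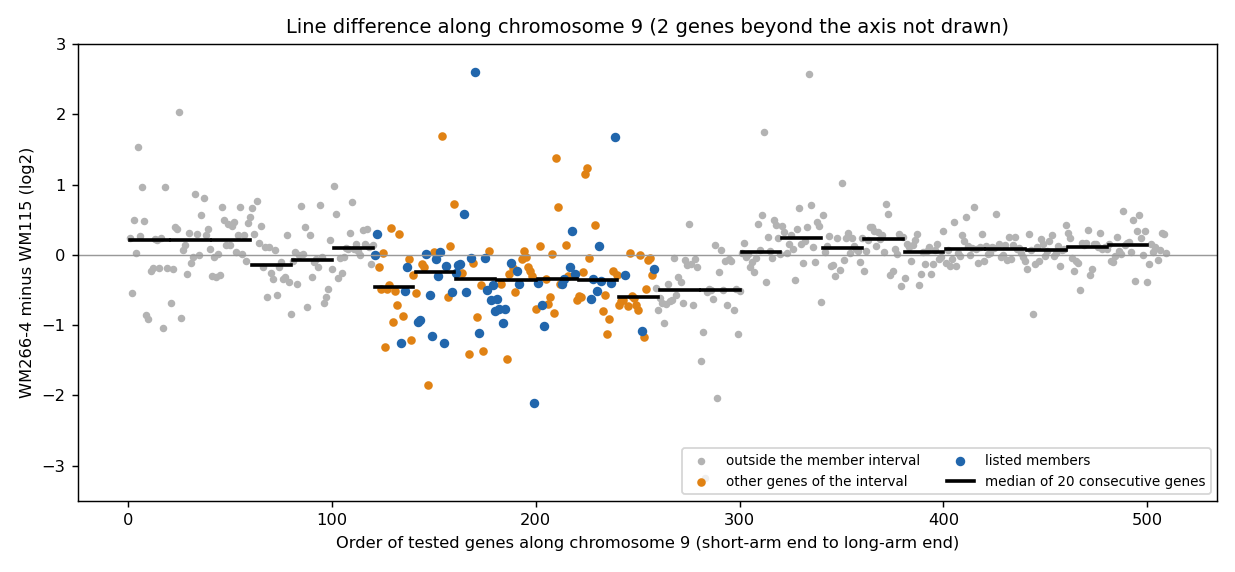
Difference of every tested gene of chromosome 9 (WM266-4 minus WM115, log2) against its order along the chromosome, with listed genes, other genes of their interval and genes outside it in separate colours; black bars are medians of 20 consecutive genes, and 2 genes lie beyond the axis. The 9 bars from SHB to MRRF lie between -0.60 and -0.24, and the other 16 between -0.14 and 0.24.

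The 5 tested genes next to each end of the interval were looked at one by one. Next to SHB on the short-arm side, SLC25A51 (0.14), DCAF10 (-0.13), EXOSC3 (0.11), TRMT10B (0.37) and TOMM5 (0.15) were all not called, the smallest adjusted p in limma being 0.0515 for TRMT10B. EXOSC3 encodes a subunit of the RNA exosome and TOMM5 a part of the mitochondrial import pore. Beyond HSDL2, 4 of the next 5 tested genes were called lower. SLC31A2, a copper transporter, read 5.62, 5.62 and 5.38 in the WM266-4 arrays and 6.45, 6.36 and 6.72 in the WM115 arrays, a difference of -0.97 (SE 0.14, limma adjusted p = 0.0054). INIP, a partner of single-stranded DNA-binding proteins, differed by -0.79 (limma adjusted p = 0.0154), ZFP37, a zinc finger gene, by -0.68 (limma adjusted p = 0.0171) and KIAA1958 by -0.47 (limma adjusted p = 0.0261). The groups did not overlap for any of these 4 genes, which nearly follows from their calls, and 25.2% of all genes were lower without overlap. Leaving out 1 array of repeat 2 or 3 ended the calls of KIAA1958, INIP and ZFP37, with limma adjusted p up to 0.11, 0.075 and 0.072, and SLC31A2 kept its call throughout. The sorting nexin SNX30, between INIP and ZFP37, was not called (-0.61, limma adjusted p = 0.14).

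Promoter sequences were looked up for genes that moved in opposite directions. Windows of 300 bases, 250 before to 50 after the transcript start in RefSeq (GRCh38.p14), were found for 53 of the 58 listed genes. The sequences of ANXA1 and TXN, both lower in WM266-4, and of ABCA1 and DAPK1, both higher, are shown as examples in each direction, and were picked after the values were seen. Capitals mark matches, on either strand, to the TATA box letters TATAAA and the E-box letters CACGTG. The windows lie at chr9:73151615-73151914 on the + strand for ANXA1, chr9:110256458-110256757 on the - strand for TXN, chr9:104928106-104928405 on the - strand for ABCA1 and chr9:87497617-87497916 on the + strand for DAPK1.
ANXA1: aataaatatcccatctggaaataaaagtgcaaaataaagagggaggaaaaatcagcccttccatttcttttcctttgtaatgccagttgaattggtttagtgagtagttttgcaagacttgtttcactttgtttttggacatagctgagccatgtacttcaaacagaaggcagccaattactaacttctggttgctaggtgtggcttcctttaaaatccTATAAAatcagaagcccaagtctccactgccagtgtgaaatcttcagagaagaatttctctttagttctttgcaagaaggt
TXN: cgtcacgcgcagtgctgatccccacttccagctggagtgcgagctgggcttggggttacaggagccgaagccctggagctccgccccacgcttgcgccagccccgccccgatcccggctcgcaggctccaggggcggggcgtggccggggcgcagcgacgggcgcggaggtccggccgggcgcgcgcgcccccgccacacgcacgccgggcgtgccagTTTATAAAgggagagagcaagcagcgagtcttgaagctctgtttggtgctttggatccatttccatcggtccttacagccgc
ABCA1: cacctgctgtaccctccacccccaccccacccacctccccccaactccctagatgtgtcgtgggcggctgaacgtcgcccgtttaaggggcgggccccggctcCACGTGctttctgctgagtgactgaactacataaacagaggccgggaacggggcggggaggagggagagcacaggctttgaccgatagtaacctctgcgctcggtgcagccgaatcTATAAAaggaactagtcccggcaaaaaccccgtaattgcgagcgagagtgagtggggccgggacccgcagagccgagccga
DAPK1: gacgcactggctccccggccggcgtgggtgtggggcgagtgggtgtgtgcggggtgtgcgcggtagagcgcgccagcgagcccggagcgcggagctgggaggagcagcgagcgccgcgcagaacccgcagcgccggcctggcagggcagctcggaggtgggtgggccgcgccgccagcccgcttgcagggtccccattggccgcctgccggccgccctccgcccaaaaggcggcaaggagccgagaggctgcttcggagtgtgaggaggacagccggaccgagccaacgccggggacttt

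The ANXA1 window held 0 CpG dinucleotides at 37.7% G+C, the TXN window 34 at 70%, the ABCA1 window 23 at 62.7% and the DAPK1 window 37 at 75.3%. The DAPK1 window is the first of 2 that RefSeq lists for the gene. For every gene with several windows only the first was counted, so the shares below do not cover other windows. ANXA1, TXN and ABCA1 were the 3 genes with TATAAA among the 50 tested listed genes that had a window (6%), against 5.79% of the 10104 tested genes with one, and in TXN matches on both strands overlap. CACGTG stood in 5 of the 50 (10%), against 10.3% of tested genes, and the MITF-type core CATGTG in 1 (2%), against 6.68%. The AP-1 letters TGANTCA stood in 2 (4%), against 4.52%. The median CpG number was 29.5 in the listed genes and 26 in all tested genes, and the median G+C was 65.7% and 65.3%. These letters are descriptions of the windows and not binding sites.

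Signalling and membrane genes held the extremes of the set in both directions. Of 10 tested, 3 were called lower (PTCH1, IPPK and ANXA1), 1 higher (DAPK1) and 6 were not called, with a median of -0.21. For this and the following groups, the shares over all genes tested were 13.3% called lower and 13.6% called higher. PTCH1, the receptor that holds the Hedgehog pathway off until a ligand binds, read 5.26, 5.74 and 6.20 in the WM266-4 arrays, against 8.35, 7.76 and 7.41 in the WM115 arrays. No array of one line reached the other, and the fitted difference was -2.11 (SE 0.32), the lowest of the set. A second, dimmer row for PTCH1 in the table differed by -1.27, through -3.10 in the first repeat and -0.34 and -0.35 in the later ones, so the 2 rows gave unlike sizes on the 2.1 arrays. IPPK, the kinase that makes inositol hexakisphosphate, read 5.95, 5.63 and 5.72 in WM266-4 and 6.58, 6.74 and 6.89 in WM115, a difference of -0.97 (SE 0.14). ANXA1, a calcium-dependent phospholipid-binding protein known for limiting inflammation, read 10.36, 10.28 and 10.43 in WM266-4 and 11.30, 11.17 and 11.37 in WM115. The arrays of each ANXA1 group lay close together, and the difference was -0.92 (SE 0.11).

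DAPK1, a calmodulin-regulated kinase that promotes cell death, differed in the direction opposite to the median of the set. It read 7.35, 6.75 and 6.53 in the WM266-4 arrays and 3.77, 4.78 and 4.30 in the WM115 arrays, so every WM266-4 array was above every WM115 array. The fitted difference was 2.59 (SE 0.31), or 6.04-fold. GNAQ, the Gq alpha subunit whose activating mutations are known from uveal melanoma, read 7.49, 7.43 and 7.42 in WM266-4 and 7.71, 7.80 and 7.74 in WM115. Its groups did not overlap, but the difference of -0.30 (SE 0.10) was not called. GNA14, its neighbour on the chromosome and a paralog that also couples to phospholipase C, was below the brightness limit, with 3.22, 3.73 and 2.99 in WM266-4 and 2.80, 2.84 and 2.52 in WM115, and was not tested. TRIM14, an adaptor of antiviral signalling, read 5.31, 5.26 and 5.01 in WM266-4 and 4.74, 5.06 and 4.79 in WM115, with overlapping groups and a difference of 0.33 (SE 0.14) that was not called. SHB, an adaptor of receptor tyrosine kinases, was described above. INVS, a ciliary protein (-0.38), NINJ1, an adhesion protein that also acts in membrane rupture (-0.12), and GAS1, a cell surface co-receptor of the Hedgehog pathway (-0.05), were not called. PIP5K1B, a kinase that makes a membrane phosphoinositide, was at 2.71 to 2.80 in WM266-4 and 2.74 to 2.77 in WM115, below the limit.

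**Figure D3:**
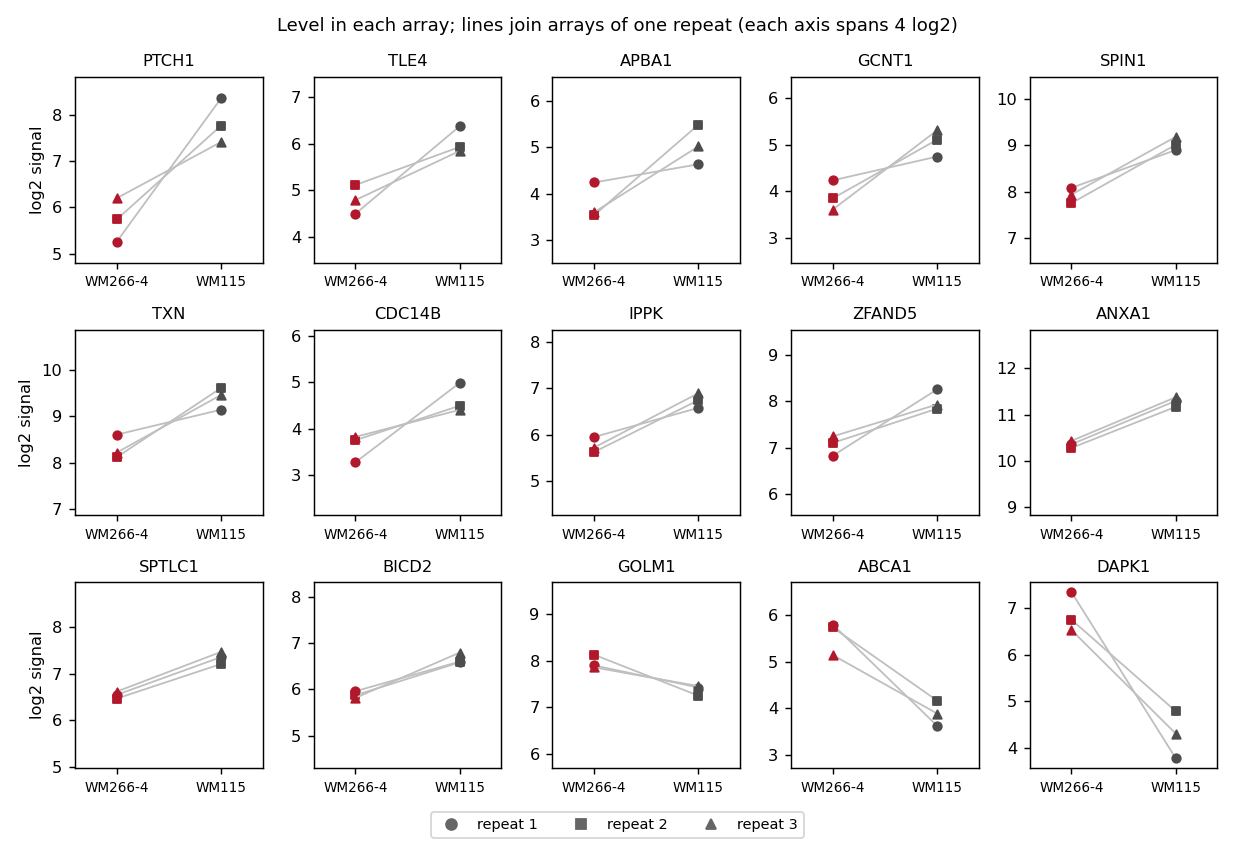
Level of the 12 listed genes with the lowest differences and the 3 called higher, in each array (log2 signal, each axis spanning 4); marker shape gives the repeat, and grey lines join the arrays of one repeat number, WM266-4 on the left and WM115 on the right. In the 12 lower genes every WM266-4 array is below every WM115 array, and in GOLM1, ABCA1 and DAPK1 every one is above.

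All 7 transcription and chromatin genes had negative differences, where 48.6% of all genes tested had one. Of the 7, 2 were called lower, and the median was -0.42. TLE4, a Groucho corepressor that silences targets of several developmental pathways, read 4.49, 5.11 and 4.79 in WM266-4 and 6.38, 5.93 and 5.85 in WM115. The groups did not overlap, and the fitted difference was -1.26 (SE 0.21). Its paralog TLE1, which neighbours it on the chromosome, read 10.04, 10.47 and 10.39 in WM266-4 and 10.73, 10.36 and 10.31 in WM115, with overlapping groups and a difference of -0.16 (SE 0.18). On the 2.1 arrays alone TLE1 differed by 0.10, the other direction. SPIN1, a reader of histone methylation, read 8.08, 7.75 and 7.94 in WM266-4 and 8.90, 9.01 and 9.18 in WM115, a difference of -1.11 (SE 0.14) without overlap. KLF9, a zinc finger factor induced by glucocorticoid and thyroid hormone, read 6.41, 7.14 and 7.15 in WM266-4 and 7.56, 6.90 and 6.75 in WM115. Its first repeat was lower in WM266-4 and the later repeats were higher, which left -0.17 (SE 0.29), or 0.32 on the 2.1 arrays alone. NFIL3, a bZIP repressor and clock-output factor (-0.43), PHF2, a histone demethylase (-0.42), and ANP32B, a histone chaperone (-0.17), were not called.

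Of the 8 genes of genome maintenance and cell division, 3 were called lower (CDC14B, SMC5 and XPA) and 5 were not called, with a median of -0.31. CDC14B, a dual-specificity phosphatase of the cell cycle, read 3.28, 3.75 and 3.82 in WM266-4 and 4.99, 4.50 and 4.41 in WM115. Its groups did not overlap and differed by -1.01 (SE 0.22), or by -0.66 on the 2.1 arrays alone, where the first repeat is left out. The 2 SMC genes of the interval encode cores of different complexes. SMC5, of the SMC5/6 repair complex, read 7.28, 7.17 and 7.26 in WM266-4 and 7.72, 7.68 and 7.84 in WM115, a difference of -0.51 (SE 0.10). SMC2, of condensin, read 7.0, 6.84 and 6.73 in WM266-4 and 7.12, 7.19 and 7.45 in WM115, and its difference of -0.39 (SE 0.14) was not called although the groups did not overlap. XPA, which verifies DNA damage in nucleotide excision repair and is mutated in a form of xeroderma pigmentosum, differed by -0.35 (SE 0.10), a call that held in 4 of the 11 alternatives. RAD23B, of the damage sensor complex of the same pathway (-0.28), RMI1, of the BLM complex (-0.14), CKS2, a cyclin-dependent kinase subunit (-0.04), and CEP78, a centrosome protein (0.04), were not called.

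Of 7 RNA processing and translation genes 5 were called lower, and each of the 7 was lower in all 3 repeats without overlap of the groups. Over all genes 13.3% were called lower, 28.9% were lower in all 3 repeats and 25.2% were lower without overlap. The 7 genes were chosen on this contrast, so nothing is read from these shares. NOL8, a nucleolar RNA-binding protein, differed by -0.76 (SE 0.12), HABP4, an RNA- and hyaluronan-binding protein, by -0.71 (SE 0.14), and IARS, the cytosolic isoleucyl-tRNA synthetase, by -0.62 (SE 0.10). IARS had 8.77, 8.74 and 8.84 in WM266-4 and 9.43, 9.34 and 9.44 in WM115. SECISBP2, which binds the RNA element that directs selenocysteine into proteins, differed by -0.51 and NCBP1, the large subunit of the nuclear cap-binding complex, by -0.42. HNRNPK, an abundant RNA-binding protein, read 9.90, 9.85 and 9.78 in WM266-4 and 10.05, 10.15 and 10.08 in WM115, a small difference of -0.25 (SE 0.10) that was not called. FAM120A, an RNA-binding scaffold of Src kinases, was not called at -0.23, and a second row for it differed by -0.40.

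The endoplasmic reticulum, Golgi and glycosylation genes split 4 lower, 1 higher and 3 not called, with a median of -0.37. GCNT1, the enzyme that builds core 2 O-glycans, read 4.24, 3.85 and 3.61 in WM266-4 and 4.75, 5.11 and 5.31 in WM115, a difference of -1.16 (SE 0.22) without overlap. ALG2, a mannosyltransferase of N-glycan assembly, differed by -0.63, or by -0.39 on the 2.1 arrays alone, STX17, a SNARE of autophagosome fusion, by -0.52 and SLC35D2, a Golgi nucleotide-sugar transporter, by -0.40, the calls of ALG2 and SLC35D2 being absent on those arrays alone. GOLM1, a Golgi membrane protein often raised in carcinomas, read 7.90, 8.13 and 7.86 in WM266-4 and 7.42, 7.25 and 7.45 in WM115. Its groups were apart in the other direction, and the fitted difference was 0.59 (SE 0.12). ERP44, a disulphide chaperone of the early secretory pathway, read 9.08, 9.29 and 8.91 in WM266-4 and 8.98, 9.0 and 8.94 in WM115. These overlapped and differed by 0.12 (SE 0.13). SEC61B, a subunit of the translocation channel (-0.35), and NANS, the sialic acid synthase (-0.28), were not called.

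Among 8 metabolism, lipid and redox genes 5 were called lower, 1 higher and 2 not, with a median of -0.55. TXN, the cytosolic thioredoxin that keeps protein cysteines reduced, read 8.61, 8.12 and 8.22 in WM266-4 and 9.14, 9.61 and 9.46 in WM115, a difference of -1.09 (SE 0.18) without overlap. SPTLC1, a subunit of the enzyme that starts sphingolipid synthesis, read 6.55, 6.47 and 6.62 in WM266-4 and 7.36, 7.21 and 7.47 in WM115, a difference of -0.80 (SE 0.12) without overlap. AUH, a mitochondrial enzyme of leucine breakdown (-0.64), RFK, the riboflavin kinase (-0.57), and ISCA1, an iron-sulfur cluster assembly factor (-0.53), were lower too. ABCA1, the transporter that exports cholesterol to lipoproteins, read 5.80, 5.74 and 5.14 in WM266-4 and 3.62, 4.16 and 3.89 in WM115. All WM266-4 arrays were above all WM115 arrays, and the fitted difference was 1.67 (SE 0.23). ALDH1B1, a mitochondrial aldehyde dehydrogenase, read 7.20, 7.12 and 7.37 in WM266-4 and 6.96, 6.84 and 7.02 in WM115, higher without overlap but not called, and its second row differed by -0.12. HSDL2, a peroxisomal dehydrogenase-like protein and the last gene in order, differed by -0.20 and was not called.

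Of the 7 tested trafficking, cytoskeleton and protein turnover genes 4 were called lower, with a median of -0.52. APBA1, an adaptor of neuronal vesicle release, read 4.24, 3.54 and 3.60 in WM266-4 and 4.63, 5.49 and 5.02 in WM115, a difference of -1.25 (SE 0.28). ZFAND5, a zinc finger protein that stimulates the proteasome, read 6.83, 7.11 and 7.25 in WM266-4 and 8.26, 7.84 and 7.93 in WM115, a difference of -0.95 (SE 0.17). BICD2, a dynein cargo adaptor, read 5.96, 5.87 and 5.82 in WM266-4 and 6.60, 6.59 and 6.79 in WM115, a difference of -0.78 (SE 0.11). None of these 3 genes had overlapping groups. UBQLN1, a shuttle factor that delivers ubiquitinated proteins to the proteasome, differed by -0.52. AGTPBP1, an enzyme that trims glutamates from tubulin (-0.12), VPS13A, a lipid transfer protein at membrane contacts (-0.07), and OSTF1, an SH3 protein first described in osteoclasts (0.01), were not called. PRUNE2, below the brightness limit, read 2.61, 2.94 and 2.97 in WM266-4 and 3.34, 2.94 and 3.06 in WM115, with no gap between the groups.

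Along the interval the listed genes gave similar counts throughout. The first 19 in order, SHB to AGTPBP1, had a median of -0.25 with 8 lower and 0 higher, the next 18, GOLM1 to PTCH1, -0.52 with 10 lower and 2 higher, and the last 18, SLC35D2 to HSDL2, -0.36 with 8 lower and 1 higher. Split by brightness, the 19 dimmest had a median of -0.40 with 10 lower, the 18 of middle brightness -0.31 with 7 lower and the 18 brightest -0.38 with 9 lower.

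Genes of the interval outside the list also reached differences past 1 in either direction. The lowest was PCSK5, a proprotein convertase, with 3.30, 4.05 and 4.08 in WM266-4 and 6.20, 5.34 and 5.43 in WM115, a difference of -1.85 (SE 0.31, limma adjusted p = 0.0085). Its WM266-4 mean (3.81), like those of SHC3 (3.56) in the interval and ZFP37 (3.86) beyond it, was below the brightness limit. ZNF484, a zinc finger gene, followed at -1.48 (limma adjusted p = 0.0025), then ZCCHC6, which adds uridines to RNA ends, at -1.42 (limma adjusted p = 0.0011), and SHC3, a neuronal adaptor of receptor kinases, at -1.37 (limma adjusted p = 0.0089). CNTNAP3B differed by -1.31 (limma adjusted p = 0.0019), but it has near-identical copies that an array probe may not separate, and TMEM2, a cell surface hyaluronidase, by -1.21 (limma adjusted p = 0.0028). In the other direction PSAT1, an enzyme of serine synthesis, read 7.55, 7.59 and 7.56 in WM266-4 and 5.85, 5.36 and 6.42 in WM115, a difference of 1.69 (SE 0.26, limma adjusted p = 0.0067). TDRD7, a Tudor protein of RNA granules known in the lens and germline, differed by 1.38 (limma adjusted p = 0.0043), GALNT12, which starts O-glycosylation, by 1.15 (limma adjusted p = 0.0122), C9orf64 by 0.73 (limma adjusted p = 0.0077) and TMOD1, which caps actin filaments, by 0.68 (limma adjusted p = 0.0142). The groups of all 11 genes were apart, which their choice as the largest calls all but fixed. Over all genes 25.2% were lower and 26.4% higher without overlap. Of these 11 calls, GALNT12 was lost without WM266-4 array 2 or 3 or WM115 array 2 (limma adjusted p up to 0.061), and TMOD1 without WM266-4 array 2 or 3 (limma adjusted p up to 0.066).

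The difference was also compared between array versions. The repeats had been seen singly when the genes were chosen, and the 1.0 arrays are 1 per line, so for the listed genes this too is a description. In limma the 2.1 difference minus the 1.0 difference was called for 5 of the 55 listed genes (9.09%), where 5.48% of all genes tested were called, and for 5 of the 83 other genes of the interval (6.02%). PTCH1 was less negative on the 2.1 arrays (by 1.47, SE 0.33), with -3.09, -2.02 and -1.21 in the 3 repeats, and CDC14B likewise (by 1.05, SE 0.21). DAPK1 was less raised on them (-1.48, SE 0.31), with 3.58, 1.97 and 2.23 in the 3 repeats. APBA1 was more negative on them (-1.29, SE 0.29), with -0.39, -1.95 and -1.42. In these 4 genes all repeats kept one direction. KLF9 did not: its repeats gave -1.15, 0.24 and 0.40 (contrast 1.46, SE 0.22). The first repeat differs from the others in array, RNA kit and culture, and these cannot be told apart. The error of this contrast rests on the spread between repeats 2 and 3 alone.

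**Figure D4:**
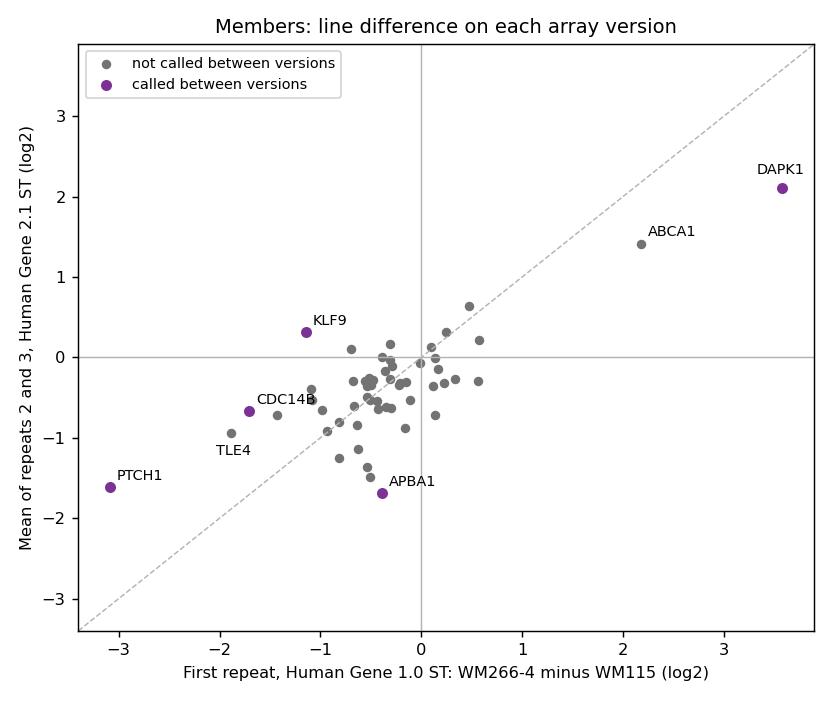
Difference of each tested listed gene (WM266-4 minus WM115, log2) in the first repeat on Human Gene 1.0 ST arrays (horizontal) against the mean of repeats 2 and 3 on Human Gene 2.1 ST arrays (vertical), with the line of equality dashed. The 5 genes called between versions are PTCH1, APBA1, CDC14B, DAPK1 and KLF9, and of these KLF9 alone lies on opposite sides of 0.

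Genes that act with the listed genes, nearly all placed elsewhere in the genome, were called in both directions. In 17 such lists 15 of 122 tested genes (12.3%) were called lower and 23 (18.9%) higher in WM266-4, with a median of 0.05, beside 13.3% lower and 13.6% higher over all genes. The most one-sided list was condensin, in which SMC2 acts: 5 of 7 other subunits were called higher, 0 lower, with a median of 0.47. NCAPH read 8.21, 8.15 and 8.22 in WM266-4 and 7.44, 7.54 and 7.44 in WM115, a difference of 0.72 (SE 0.10, limma adjusted p = 0.0043), and NCAPG also differed by 0.72 (SE 0.11, limma adjusted p = 0.0068). In the SMC5/6 list 2 of 8 were called higher and 0 lower: NSMCE1 by 1.20 (SE 0.15, limma adjusted p = 0.0033) and NSMCE4A by 1.06 (SE 0.10, limma adjusted p = 0.0016), both non-SMC subunits, while SMC6, the partner of SMC5, was not called at 0.17.

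In the Hedgehog list 1 of 9 genes was called lower and 2 higher. GLI2, a transcription factor of the pathway, read 6.01, 5.84 and 6.29 in WM266-4 and 7.46, 7.56 and 7.16 in WM115, a difference of -1.34 (SE 0.17, limma adjusted p = 0.0035). Called higher were CDON by 0.73 (SE 0.16, limma adjusted p = 0.0197) and GLI3 by 0.39 (SE 0.10, limma adjusted p = 0.0356). Their calls were lost in 4 and 6 of the 11 alternatives. GLI1, an effector and target of the pathway, was not called at -0.46, its repeats being 0.11, -0.45 and -1.03. Its WM266-4 mean (3.78) was below the brightness limit. SPTLC2, the catalytic partner of SPTLC1 in serine palmitoyltransferase, read 6.92, 6.63 and 6.63 in WM266-4 and 5.59, 5.80 and 6.01 in WM115, a difference of 0.92 (SE 0.15, limma adjusted p = 0.0081), opposite in sign to that of SPTLC1. PLCB1, a phospholipase activated by Gq proteins, was higher by 1.24 (SE 0.15, limma adjusted p = 0.0034), the 1 call among 8 genes of its list. SEPHS1, of the selenoprotein list with SECISBP2, was higher by 0.79 (SE 0.10, limma adjusted p = 0.0042), with 1 of 5 lower and 2 higher there. ANXA3, a relative of ANXA1, read 6.24, 4.97 and 4.54 in WM266-4 and 1.77, 3.27 and 3.35 in WM115, a difference of 2.46 (SE 0.58, limma adjusted p = 0.0256) that was 1.45 on the 2.1 arrays alone, and whose call was lost in 5 of the 11 alternatives, among them leaving out WM266-4 array 2 or WM115 array 2 or 3. Its WM115 mean of 2.79 was below the brightness limit, so the size of this difference rests on a level not shown to be above background.

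In nucleotide excision repair, the pathway of XPA and RAD23B, 6 of 19 were lower and 2 higher with a median of 0.04, and in the BLM complex list 0 of 3 were lower and 2 higher. The lists around SPTLC1 and ISCA1 each had 2 of 6 lower and 1 higher. Single lower calls stood in the Groucho (1 of 4), sialic acid (1 of 4) and cap-binding (1 of 4) lists, and single higher calls in the Sec61 (1 of 5), N-glycan assembly (1 of 11) and thioredoxin (1 of 10) lists. The annexin list had 2 of 8 higher and 0 lower, and the cholesterol efflux list had 0 calls among 5 genes. Of 31 called partners looked at one by one, 8 kept their call under all 11 alternatives: NCAPH, NCAPG, NSMCE1, NSMCE4A, GLI2, SPTLC2, PLCB1 and SEPHS1. The number of lower calls over all lists was 1 without WM266-4 array 2, 3 without array 3, 8 without WM115 array 2 and 5 without array 3, and the number of higher calls was 8, 12, 11 and 11.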

How the data were processed

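RNA of WM266-4 and WM115 was measured on 6 Affymetrix gene-level arrays, 3 per line. Affymetrix Expression Console and RMA were used, per the submitters' processing notes; versions, genome build and the removal of the array-version effect are not given in the sources used here. The values deposited by the authors are log2 signals per gene. From them, repeated rows of a symbol (1121 of 18887) were dropped in favour of the brightest, leaving 17766 genes, and 12436 at or above the 30th percentile of the mean (3.97) were tested. Signal over background was not assessed, and the number of arrays limits the precision.

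Values were fitted in R 4.3.3 with limma 3.58.1 (lmFit, eBayes) with line and array version as terms (3 residual and 3.38 prior degrees of freedom), and p-values were adjusted over all tested genes by the Benjamini-Hochberg method. A fit with 1 mean per line and version (2 residual and 5.86 prior degrees of freedom) tested the difference between versions. The fits were tried on simulated data with independent noise for each array. That simulation did not include the removal of the version effect, so it cannot show how errors are controlled on these values. The table names no genome build, so RefSeq (GRCh38.p14, 17716 genes matched) gave only gene order and promoter windows. The value tables of single array versions were not used, because their probe sets are not paired with gene names here.

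The members (the 58 listed genes), partner lists, tests and alternatives were chosen with earlier results of these data known. Values per array were given for the 12 lowest, 6 highest and 3 brightest members, those differing between versions and 3 paralog pairs. Other genes named were the largest called in the interval, 5 at each end, and up to 2 called per partner list and direction; GLI1, SMC6, IARS, PRUNE2 and PIP5K1B were added after their values were seen, and some that the rule took are given by counts only or are not reported here. Deviations of same-numbered arrays correlated at -1.00, -0.26 and -0.40, but the removal of the version effect forces the first of these and bears on the others, so whether the numbers pair the arrays is not known.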

Additional observations from a re-analysis of the deposited data

Results flagged for a closer look

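The line difference of 681 of 12436 tested genes (5.48%) differed between array versions (2.1 minus 1.0, limma, adjusted over all tested genes). The first repeat also differed in RNA kit. Among the genes that the naming rule took there were 9. Among the listed genes these were PTCH1 (1.47), CDC14B (1.05), KLF9 (1.46), APBA1 (-1.29) and DAPK1 (-1.48), whose values are given above. In the interval PCSK5 gave 1.58, its repeats being -2.90, -1.29 and -1.35 (limma adjusted p = 0.0058). SHC3 gave -1.10, its repeats being -0.63, -1.87 and -1.59 (limma adjusted p = 0.0383). COL15A1, UGCG and KLF4, which the naming rule did not take, were also called there. COL15A1 gave 3.36, with -1.01, 2.48 and 2.21 (limma adjusted p = 0.0013). UGCG gave -2.23, with 1.44, -0.74 and -0.85 (limma adjusted p = 0.0018). KLF4 gave 0.995, with -1.39, -0.52 and -0.27 (limma adjusted p = 0.0485). Just beyond the interval SNX30 gave -1.27, with 0.23, -1.02 and -1.05 (limma adjusted p = 0.0377), so its first repeat had the other sign. ANXA3 gave -3.03, with 4.47, 1.71 and 1.19 (limma adjusted p = 0.0012).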

How the results depend on the processing

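The 26 lower calls among the 55 listed genes became 25 without the brightness limit, with the mean of repeated rows and after quantile normalization, 26 with a robust prior, 32 without the array version term and 24 on the 2.1 arrays alone, of which 22 were shared with the 26. Lower calls ran from 12 to 24 when 1 array was left out. The median of -0.39 was -0.36 without the limit, -0.38 after quantile normalization, -0.35 on the 2.1 arrays alone and -0.39 to -0.35 with 1 array left out. With the replicate number as a block 19 of the 26 were called, all shared, with 1205 lower and 1193 higher over all genes; whether the numbers pair the arrays is not known. The other genes of the interval had a median of -0.41 on the 2.1 arrays alone. Leaving out 1 array gave them 20 to 38 lower calls, 3 to 7 higher calls and medians of -0.41 to -0.34. Partner lists had 24 lower calls without the version term, 9 lower and 15 higher with the replicate block and a median of 0.10 on the 2.1 arrays alone; with 1 array left out they had 1 to 18 lower and 8 to 21 higher calls and medians of 0.028 to 0.10. Over all genes, leaving out 1 array gave 716 to 1941 lower and 684 to 1973 higher calls. Listed genes differing between versions numbered 3 without the limit, 3 after quantile normalization and 5 to 11 with 1 array left out. TLE1 (0.10), KLF9 (0.32), AGTPBP1 (0.009) and CEP78 (-0.008) changed direction on the 2.1 arrays alone, also reached by leaving out either first-repeat array. EXOSC3 did so without WM266-4 array 2. With 1 array left out TLE1 ran from -0.26 to 0.10, KLF9 from -0.35 to 0.32 and EXOSC3 from -0.014 to 0.19. SHB, VPS13A, OSTF1, CKS2 and GAS1, none of them called, also took both signs over the alternatives. The causes were not tested. Over the 11 alternatives with a fit of their own, 16 of the 29 called listed genes lost their call at least once (66 losses) and 8 others gained one (10 gains); of 46 other named called genes 28 lost theirs at least once (107 losses). Leaving out SHB and ALDH1B1 was added after seeing the data. Differences within the value tables of each array version were not run.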
